A study of Mus musculus with 2 samples.

Results

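The miR-23/27/24 genes lie in mouse as 2 paralogous clusters of 3 hairpins each, Mir23b, Mir27b and Mir24-1 on chromosome 13 and Mir23a, Mir27a and Mir24-2 on chromosome 8. They were picked by symbol in GENCODE annotation M21, without use of their values, and are 6 of the 2202 miRNA genes counted. MicroRNA-seq reads came from the hippocampus (labelled layer of hippocampus) of male B6CASTF1/J mice, an F1 hybrid of C57BL/6J and CAST/EiJ, at 2 months of age. The only group holds 2 biological replicates with separate biosamples and 1 donor entry, so the spread given here may not cover the spread between animals. No treatment or genotype was compared.

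A miRNA cluster is transcribed as 1 primary RNA from which each hairpin is cut, and each hairpin can give a 5p and a 3p mature arm. The bases near the 5′ end of a mature arm, the seed, pair with target messenger RNAs, so arms with a common seed are counted as a family. In mouse, the miR-23/27/24 clusters are known for roles in endothelial cells and vessel growth, and miR-23 has been described as enriched in cultured rodent astrocytes. miR-27 is known from lipid metabolism and adipocyte differentiation, miR-23 from control of glutaminase, and miR-24 from repression of cell-cycle and DNA-damage genes.

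The hairpins are shown first because the counts rest on which reads can be told apart between the clusters. Sequences are from the RefSeq miRNA table on GRCm38.p6, which listed all 6 genes, and each hairpin was identical to the GENCODE M21 transcript of that gene. Each is written 5′ to 3′ on the plus strand, and capitals mark the longest stretch that the hairpin shares with its paralog.
Mir23b, chr13:63300484-63300557: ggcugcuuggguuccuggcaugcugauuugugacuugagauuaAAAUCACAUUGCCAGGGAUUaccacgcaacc
Mir23a, chr8:84208518-84208592: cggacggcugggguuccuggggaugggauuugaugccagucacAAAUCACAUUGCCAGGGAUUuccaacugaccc
Mir27b, chr13:63300712-63300784: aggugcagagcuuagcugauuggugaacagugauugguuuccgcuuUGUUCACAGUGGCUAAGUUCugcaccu
Mir27a, chr8:84208672-84208758: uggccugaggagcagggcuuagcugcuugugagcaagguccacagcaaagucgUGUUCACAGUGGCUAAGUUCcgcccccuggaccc
Mir24-1, chr13:63301208-63301275: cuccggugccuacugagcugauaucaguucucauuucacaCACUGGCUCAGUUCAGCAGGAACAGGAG
Mir24-2, chr8:84208815-84208921: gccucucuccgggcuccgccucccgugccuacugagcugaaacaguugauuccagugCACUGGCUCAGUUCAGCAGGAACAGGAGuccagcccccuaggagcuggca

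The shared stretch was 20 nt in the miR-23 pair, 20 nt in the miR-27 pair and 28 nt in the miR-24 pair. In every pair it lay in the region of the 3p arm. The mature 3p arms listed for these genes, and the 5p arms of the miR-24 genes, follow with the seed (bases 2 to 8) in capitals.
miR-23a-3p: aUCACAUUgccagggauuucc
miR-27b-3p: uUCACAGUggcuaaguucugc
miR-27a-3p: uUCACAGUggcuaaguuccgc
miR-24-3p: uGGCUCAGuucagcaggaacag
miR-24-1-5p: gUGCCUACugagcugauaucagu
miR-24-2-5p: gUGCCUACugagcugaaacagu

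miR-24-3p is the same molecule from either cluster, since its 22 bases occurred in both the Mir24-1 and the Mir24-2 hairpin. The miR-27 3p arms differed by 1 substitution, C19U, with the base of miR-27a first and positions counted from the 5′ end. Read from the 5′ end, miR-23a-3p, miR-27a-3p and miR-27b-3p each became unlike every other listed hairpin only from base 19. The closest other hairpin to miR-23a-3p was Mir23b, with 1 mismatch. The miR-24 5p arms, by contrast, became distinct from base 17, and the 5p arms of the miR-23 and miR-27 genes from base 9 or 11. Reads that mapped to several places were listed in a row of their own, and the counts join both arms of a hairpin, so how much of each count came from which arm was not measured.

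Outside the clusters, the miR-27 and miR-128 seeds overlap with an offset of 1 base. Bases 2 to 8 of miR-128-3p are the same letters as bases 3 to 9 of miR-27a-3p and miR-27b-3p, and are in capitals here.
miR-128-3p: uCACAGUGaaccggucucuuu
Its genes, known for high levels in neurons, had 4518 and 16906 CPM (Mir128-1) and 1113 and 3034 CPM (Mir128-2) in replicates 1 and 2. CPM are the reads of a gene scaled to a total of 1000000 over all miRNA genes of its library. miR-128-3p is listed for both of these genes, and reads that fit both are in neither count. The Mir128 values therefore describe only reads that could be placed. The seed of miR-24-3p was also found in 4 mature miRNAs outside the clusters, from Mir6413, Mir6410, Mir6369 and Mir5124b, which had 0 counts in both libraries. No listed mature miRNA outside the clusters had the seed of the miR-23a or miR-27 3p arms.

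The libraries held 2322520 and 3414105 reads on miRNA genes, with 42.6% and 46.0% of all reads set aside as multimapping in replicates 1 and 2. The neuron list, chosen with earlier results known, summed to 32939 and 47570 CPM. By mean it was led by Mir132 at 10916 ± 278 CPM (SD, n = 2). In replicate 2 it was led by Mir128-1, at 16906 CPM against 10719 CPM for Mir132. Of the 9 genes of that list 7 were detected, and its 3 Mir124a genes were at or near 0, with 0 to 11 counts. Multimapping reads are in no gene's count, and their part in these low counts and in the Mir128 counts was not tested. The remaining lists, also chosen with earlier results known, were led by Mir126a (endothelium, 13681 CPM), Mir29a (astrocyte-enriched, 10482 CPM) and Mir143 (mural cells, 6530 CPM), then by Mir338 (oligodendrocytes, 1861 CPM), Mir451a (erythrocytes, 1407 CPM) and Mir150 (microglia and leukocytes, 767 CPM). Genes of liver, striated muscle and sensory cells together had 240 and 107 CPM.

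All 6 genes were detected, meaning 2 CPM or more in both libraries, as were 18.2% of the 2202 genes. Together they held 3.07% of miRNA-gene counts in replicate 1 (Wilson 95% interval 3.05 to 3.10) and 3.66% in replicate 2 (3.64 to 3.68). Nearly all of that was miR-23. Intervals cover counting error only, and no molecular identifiers are named in the sources used here. The chromosome 13 cluster summed to 22156 and 25785 CPM, and the chromosome 8 cluster to 8576 and 10847 CPM, so the libraries did not overlap between clusters.

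**Figure D1:**
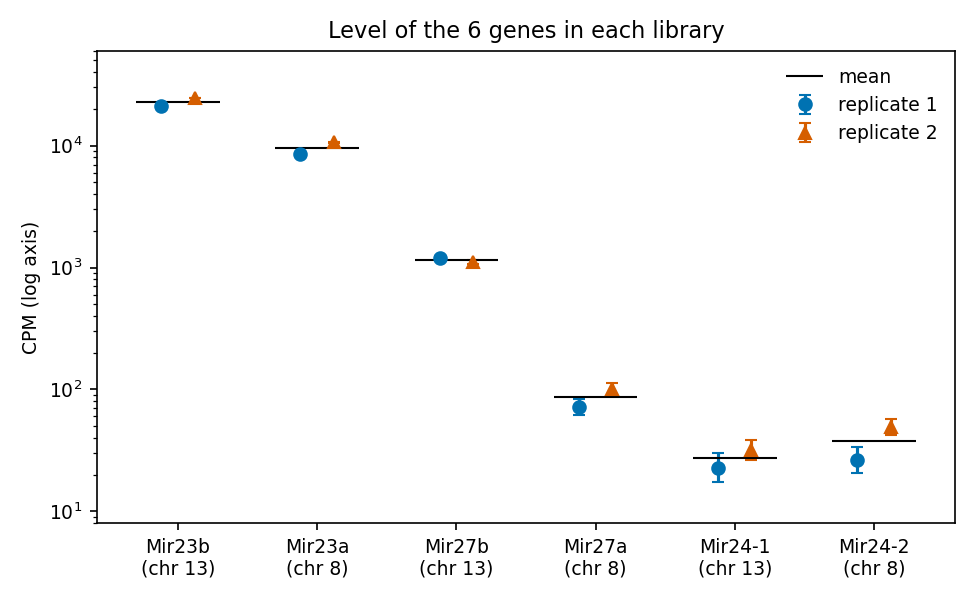
CPM on a log axis of each gene in replicate 1 (blue circles) and replicate 2 (orange triangles), with Wilson 95% intervals and the mean as a line; the chromosome 13 gene stands left of its chromosome 8 paralog. The miR-23 genes lie highest, at means of 22792 and 9587 CPM, and the miR-24 genes lowest, at 27.2 and 37.9 CPM.

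Mir23b (ENSMUSG00000065599.2), the first hairpin of the chromosome 13 cluster, had 48630 reads in replicate 1 and 84146 in replicate 2. These equal 20938 and 24647 CPM, a mean of 22792 ± 2622 CPM (SD, n = 2), and ranked it 10 by level in both libraries. Mir23a (ENSMUSG00000065611.1), the first hairpin on chromosome 8, had 19688 and 36520 reads, or 8477 and 10697 CPM, a mean of 9587 ± 1570 CPM. The replicates of the pair did not overlap. Mir23b was 2.47-fold above Mir23a in replicate 1 and 2.30-fold in replicate 2, a log2 ratio of 1.25 ± 0.07 (SD, n = 2). This was larger than the spread, a call made here where the log2 ratios of both libraries had 1 sign and their mean exceeded 2 SD. No p is given for ratios, since the smallest 2-sided sign-flip p from 2 libraries is 0.5.

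Mir27b (ENSMUSG00000065475.2), the middle hairpin on chromosome 13, had 2774 and 3778 reads, or 1194 and 1107 CPM in replicates 1 and 2. Mir27a (ENSMUSG00000065444.1), the middle hairpin on chromosome 8, had 168 and 345 reads, or 72.3 and 101 CPM. Their means were 1150 ± 62.1 CPM and 86.7 ± 20.3 CPM (SD, n = 2), with no overlap between the genes. Among reads that could be placed, the gap within this pair was the widest of the paralog pairs. Mir27b exceeded Mir27a 16.5-fold in replicate 1 and 10.9-fold in replicate 2, a log2 ratio of 3.75 ± 0.42 that was larger than the spread. The log2 ratio of the miR-27 pair exceeded that of the miR-23 pair by 2.74 and 2.25 in replicates 1 and 2, with a mean of 2.49 ± 0.35 (SD, n = 2), also larger than the spread.

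Mir24-1 (ENSMUSG00000105904.1), the last hairpin on chromosome 13, had only 53 and 108 reads, or 22.8 CPM (Wilson 95% interval 17.4 to 29.8) and 31.6 CPM (26.2 to 38.2). Mir24-2 (ENSMUSG00000065541.1), the last hairpin on chromosome 8, had 61 and 169 reads, or 26.3 CPM (20.4 to 33.7) and 49.5 CPM (42.6 to 57.5). The intervals of the pair overlapped in replicate 1 and not in replicate 2. The log2 ratio of Mir24-1 over Mir24-2 was -0.20 and -0.64, a mean of -0.42 ± 0.31 (SD, n = 2), which was within the spread. This pair ran against the other pairs in direction, and dividing counts by hairpin length, 68 nt for Mir24-1 and 107 nt for Mir24-2, turned its mean log2 ratio to 0.23. The other ratios are given without such division, because a read covers a mature arm and not the hairpin. Reads of miR-24-3p fit both hairpins, and their number among the 2743569 and 4604517 multimapping reads of replicates 1 and 2 was not measured. The miR-24 counts therefore describe only reads that could be placed.

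**Figure D2:**
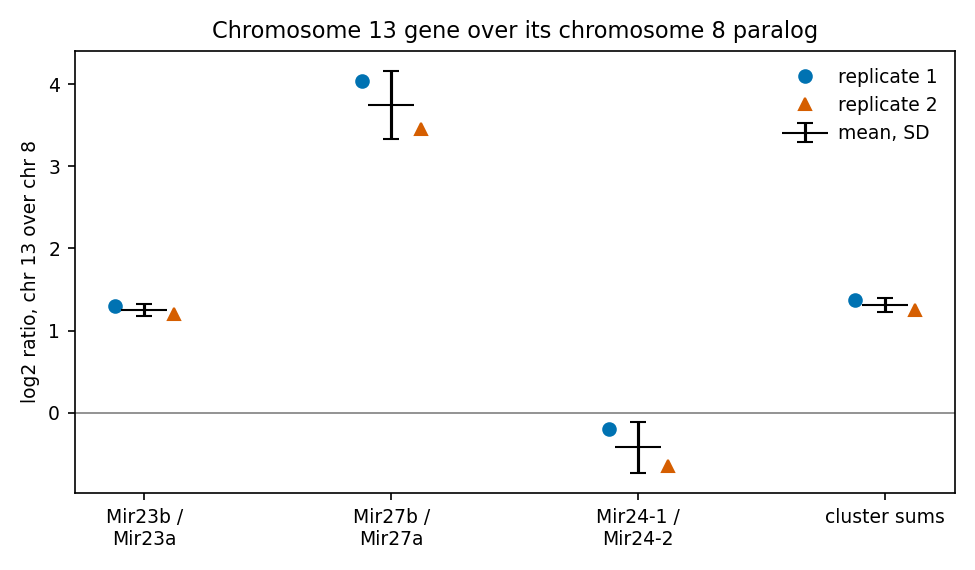
Log2 ratio of each chromosome 13 gene over its chromosome 8 paralog, and of the cluster sums, in replicate 1 (circles) and replicate 2 (triangles), with mean and SD in black. The miR-27 pair stands highest at 3.75, the miR-23 pair is at 1.25, and the miR-24 pair lies below 0 at -0.42.

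The sum of the chromosome 13 cluster was 2.58-fold and 2.38-fold that of the chromosome 8 cluster in replicates 1 and 2, a log2 ratio of 1.31 ± 0.08 (SD, n = 2). That value follows miR-23, as Mir23b made up 94.5% and 95.6% of the chromosome 13 sum and Mir23a 98.9% and 98.6% of the chromosome 8 sum. By mean level the order was Mir23b, Mir23a, Mir27b, Mir27a, Mir24-2 and Mir24-1, and it was the same in both libraries. Each step of that order was larger than the spread except the last, between the miR-24 genes. Mir27b, for example, lay below Mir23a by a log2 ratio of -3.05 ± 0.32 (SD, n = 2).

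The hairpins of a cluster sit close together on the plus strand. On chromosome 13 the gaps were 154 nt between Mir23b and Mir27b and 423 nt between Mir27b and Mir24-1, and the cluster spanned 792 nt. On chromosome 8 the gaps were 79 and 56 nt, and the span was 404 nt. The chromosome 13 cluster lies inside the protein-coding gene Aopep, an aminopeptidase gene listed as 2010111I01Rik in M21, on the same strand. Mir23b is in an intron of it. Mir27b lies wholly in an exon of 1 nonsense-mediated-decay transcript, and Mir24-1 overlaps exons of 4 noncoding or decay transcripts of that gene. On the opposite strand the whole cluster lies in introns of Fancc, a Fanconi anemia gene. The chromosome 8 cluster lies outside protein-coding genes, with Zswim4 nearest at 1756 nt from Mir24-2, and the last 2 bases of Mir24-2 overlap the long noncoding RNA Gm26532. Host gene RNA was not measured here.

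Within each cluster the counts were lower at each hairpin further along the plus strand. Mir27b was 17.5-fold below Mir23b in replicate 1 and 22.3-fold in replicate 2, a log2 ratio of -4.30 ± 0.24 (SD, n = 2). Mir27a was 117-fold and 106-fold below Mir23a, a log2 ratio of -6.80 ± 0.10. So miR-27 made up 5.39% and 4.29% of the chromosome 13 counts, and 0.844% and 0.932% of the chromosome 8 counts. Mir24-1 was 909-fold and 776-fold below Mir23b, and Mir24-2 was 320-fold and 215-fold below Mir23a. Mir24-2 was 2.74-fold and 2.04-fold below Mir27a, the smallest step. All of these ratios were larger than the replicate spread. They describe only reads that could be placed. Reads of miR-24-3p fit both hairpins. Reads of miR-23a-3p, miR-27a-3p and miR-27b-3p that end before base 19 also fit another hairpin.

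**Figure D3:**
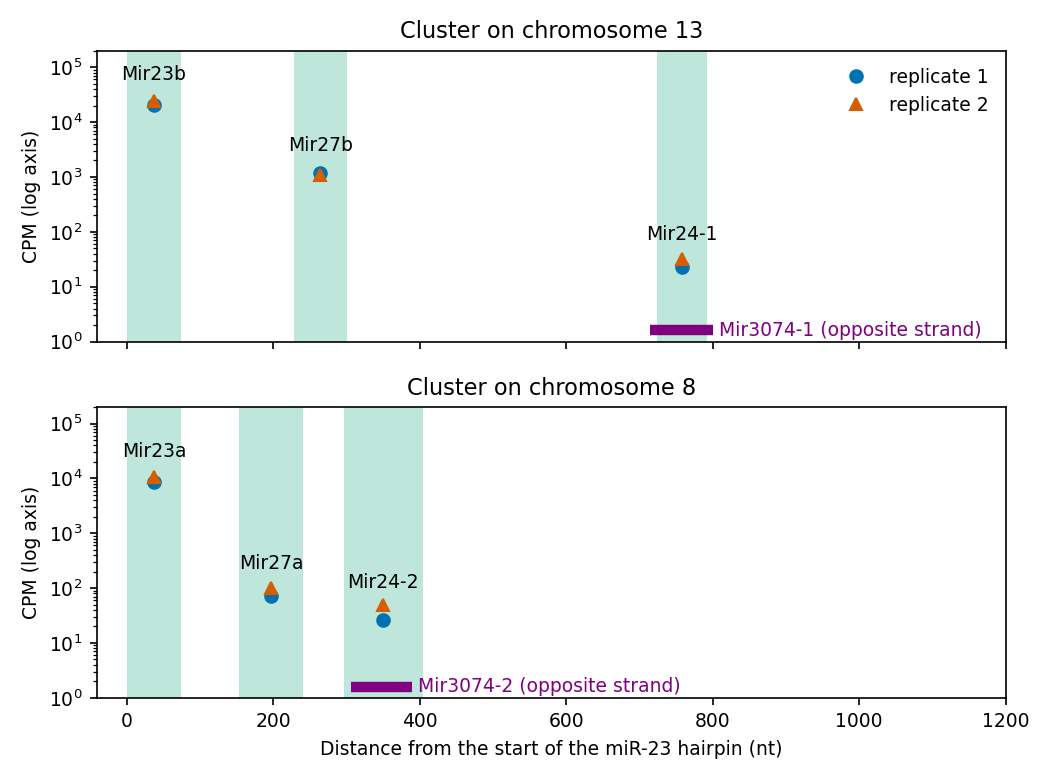
CPM on a log axis of each gene against its distance (nt) from the start of the miR-23 hairpin, with hairpins shaded in green and the hairpin of the opposite strand as a purple bar. Both clusters step down from miR-23 to miR-24, over 792 nt on chromosome 13 and 404 nt on chromosome 8. All values cover only reads that could be placed.

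Unequal levels of neighbours were common across the table. Adjacent detected miRNA genes within 10 kb on 1 strand formed 108 pairs with a median difference of 6.35-fold, and 43 of them (39.8%) differed 10-fold or more. Of the 4 adjacent pairs in the miR-23/27/24 clusters 3 passed that fold, which was chosen after the values were known. Mir23a and Mir27a ranked 5 of the 108 pairs by difference, at 111-fold. Mir27b and Mir24-1 ranked 15 at 42.5-fold, Mir23b and Mir27b 32 at 19.8-fold, and Mir27a and Mir24-2 83 at 2.36-fold. Genes of 1 cluster share a transcript, so these pairs are not independent. All pairs again describe only reads that could be placed, which matters most for those with a miR-24 gene.

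**Figure D4:**
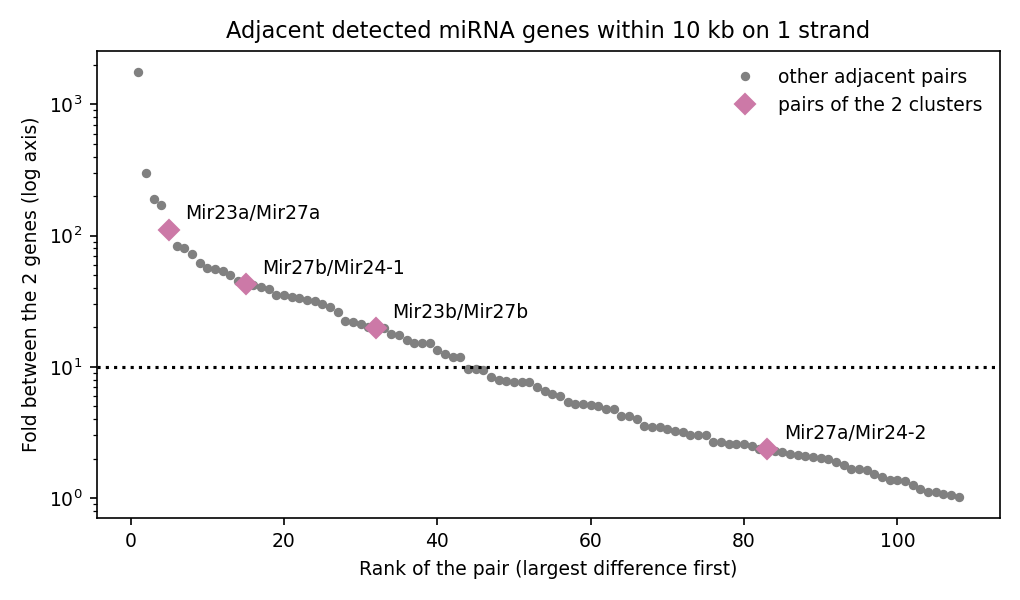
Fold between adjacent detected miRNA genes (log axis) by rank of the 108 pairs, with the 4 pairs of the miR-23/27/24 clusters in pink, the others in grey and 10-fold as a dotted line. The pink pairs are spread from rank 5 to rank 83.

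Sharing of mature arms offers another setting for the miR-24 genes. Of 1018 genes with a mature sequence in the RefSeq table, 61 had 1 arm that also occurred in another listed hairpin, as miR-24-3p does, and 1 arm that did not. Of these 61, 38 (62.3%) were detected, with a median of 19.1 CPM over all 61 and 130 CPM over the 38. Mir24-2 ranked 24 and Mir24-1 ranked 27 among the 61 by mean CPM, both below the median of the 38 detected genes. Mir128-1 stood at the top at 10712 CPM. Of the 53 genes with every listed arm shared, 8 (15.1%) were detected, at a median of 0 CPM over all 53 and 113 CPM over the 8. The other 4 members belonged to the 904 genes with no fully shared arm. Of these, 312 (34.5%) were detected, at a median of 0.508 CPM over all 904 and 102 CPM over the 312. Mir23b is in that class by its 5p arm, miR-23b-5p, and was not classed on miR-23b-3p. The part of arm sharing in the level of any member was not tested.

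Another miRNA gene lies opposite each miR-24 gene, Mir3074-1 opposite Mir24-1 and Mir3074-2 opposite Mir24-2. The tables count each gene without regard to strand, on its own strand and on the other strand. On its own strand Mir3074-1 had 15 and 27 reads in replicates 1 and 2, or 6.46 and 7.91 CPM. Mir3074-2 had 0 reads in both, with upper Wilson limits of 1.65 and 1.13 CPM. The floor of 3 counts equals 1.29 and 0.879 CPM. miR-3074-5p is listed for both of these genes, and reads that fit both are in neither count. The Mir3074 values and limits therefore describe only reads that could be placed. Without strand, both miR-24 genes had 0 counts in both libraries, as did 24 of the 27 detected genes with a miRNA gene on the opposite strand. The row of ambiguous reads, which name no gene, held 170529 and 253343 reads without strand and 0% of reads in the same-strand column. The counts of Mir23b, Mir23a, Mir27b and Mir27a were identical with and without strand, and these genes had 0 reads on the opposite strand.

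The libraries were also set against each other, gene by gene, with a 2-sided exact binomial test over the 401 detected genes. That test compares 2 libraries, not conditions, and its p-values cover counting error only, with each read taken as independent. By it 50.9% of detected genes differed at a Benjamini-Hochberg adjusted p under 0.05, and 28.2% were higher in replicate 2. Of the 6 members 5 differed, 4 of them higher in replicate 2. Mir24-2 differed most, at 1.84-fold higher in replicate 2 (adjusted exact binomial p = 5.77e-05), and 51 detected genes differed by more. Mir27a was 1.37-fold higher (adjusted exact binomial p = 0.00172), Mir23a 1.24-fold and Mir23b 1.16-fold. Mir27b ran the other way, 1.10-fold higher in replicate 1 (adjusted exact binomial p = 0.000468). Mir24-1 was 1.36-fold higher in replicate 2 and did not pass (adjusted exact binomial p = 0.119). The median difference was 1.30-fold over the 6 members and 1.26-fold over all detected genes.

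**Figure D5:**
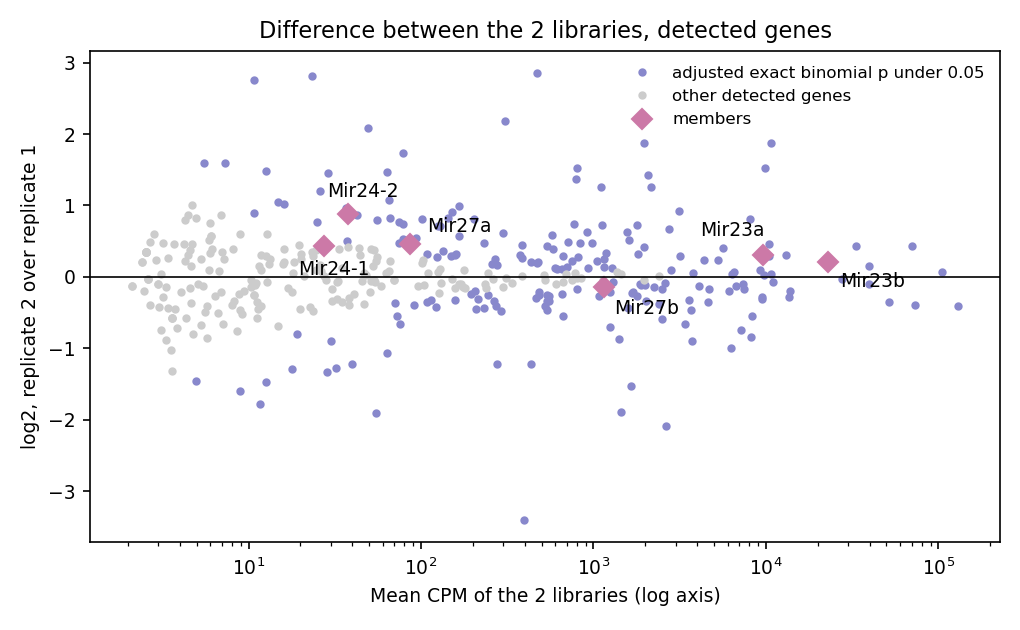
Log2 ratio of replicate 2 over replicate 1 against mean CPM (log axis) for the 401 detected genes, with members as pink diamonds and genes past the exact binomial threshold in violet. The members lie between -0.14 (Mir27b) and 0.88 (Mir24-2), inside the cloud of all detected genes.

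Marker lists of other cells also differed between the same libraries, in both directions. Of the endothelial pair, Mir126a had 14889 and 12474 CPM in replicates 1 and 2, and Mir126b had 0 counts in both. The mural list, both of its genes detected, had 6456 and 6935 CPM. All 3 genes of the astrocyte-enriched list were detected, with a sum of 9380 and 11670 CPM, nearly all of it Mir29a at 9358 and 11606 CPM. The oligodendrocyte list, all 3 genes detected, was lower in replicate 2, at 4367 and 2683 CPM in replicates 1 and 2. Each of its genes was lower in replicate 2, Mir338 only from 1911 to 1811 CPM. The erythrocyte list, all 3 genes detected, summed to 1922 and 1149 CPM. That sum follows Mir451a, at 1807 and 1007 CPM, while the other genes of the list were not lower in replicate 2. The microglia and leukocyte list, with 4 of 5 genes detected, had 1260 and 1598 CPM. Mir150 had 569 and 966 CPM of these, and the other genes of the list went in both directions. The part of these lists in the differences of the members was not tested. In tissue, a change in cell number and a change in RNA per cell cannot be told apart.

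Genes nearest in level were named by the distance of log2(CPM + 1) over the 2 libraries. Mirlet7e, at 27636 CPM, and Mir99a, at 33399 CPM, were nearest to Mir23b. Mir99b, at 9182 CPM, and Mir29a, at 10482 CPM, were nearest to Mir23a. Mir484 and Mir28a, at 1138 and 1239 CPM, stood next to Mir27b, and Mir3059 and Mir374b, at 87.0 and 93.0 CPM, next to Mir27a. Mir592 and Mir25, at 36.7 and 42.5 CPM, stood next to Mir24-2, and Mir1930 and Mir3057, at 24.6 and 25.8 CPM, next to Mir24-1. With 2 libraries such nearness describes level only.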

How the data were processed

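The authors deposited raw read counts per miRNA gene, without normalization, in 1 table per library, for assembly mm10 and GENCODE annotation M21 per the labels and the deposited descriptions. The libraries held fragments under 30 nt per the labels. The aligner and counting program are not given in the sources used here. In the same-strand column used, the 4 rows that name no gene held 63.9% and 65.9% of all reads of replicates 1 and 2 and were left out of totals, and each column summed to the same library total. CPM, ratios (0.5 added to each count) and Wilson 95% intervals were computed in Python 3.11.15. The exact binomial test used TMM factors of 0.991 and 1.01 from edgeR 4.0.16 (R 4.3.3), with size factors from DESeq2 1.42.0 as an alternative. It was also run on simulated counts that held counting error only. That run therefore does not cover spread beyond counting error. No contrast between conditions exists, so no quasi-likelihood fit was made. Sequence sharing was searched among the 2202 hairpins of the table, not the genome. Named genes are the members, miRNA genes within 10 kb or on the opposite strand, the 2 nearest in level to each, leading markers, seed partners and Mir126b, whose naming was chosen after its values were seen. Members and lists were chosen with earlier results of these data known. No batch is given in the labels.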

Additional observations from a re-analysis of the deposited data

Results flagged for a closer look

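Reads on the strand opposite Mir24-1 numbered 15 in replicate 1 and 27 in replicate 2, more than the floor of 3 counts. They stood out because the report rests on the same-strand counts of the members, and they equal the same-strand counts of Mir3074-1. The other 5 members had 0 reads on the opposite strand in both libraries.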

How the results depend on the processing

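Levels in CPM depend on what they are scaled to. Scaled to 1000000 of all reads, the cluster sums were 8394 CPM (chromosome 13) and 3397 CPM (chromosome 8), and with the 5 most abundant genes left out of the total they were 42102 and 17035 CPM. Over single replicates they ranged from 22156 to 25785 CPM and from 8576 to 10847 CPM. TMM sizes and the unstranded column moved these sums by less than 1 SD. Without strand the miR-24 genes were at 0 CPM, so their ratios could not be formed, and Mir27b moved to 1242 CPM. Log2 ratios ranged over single replicates from 1.20 to 1.30 (Mir23b over Mir23a), 3.45 to 4.04 (Mir27b over Mir27a), -0.64 to -0.20 (Mir24-1 over Mir24-2), 1.25 to 1.37 (cluster sums), -4.48 to -4.13 (Mir27b over Mir23b), -9.83 to -9.60 (Mir24-1 over Mir23b), -6.87 to -6.72 (Mir27a over Mir23a), -8.32 to -7.75 (Mir24-2 over Mir23a), -5.70 to -5.12 (Mir24-1 over Mir27b), -1.45 to -1.03 (Mir24-2 over Mir27a) and -3.27 to -2.83 (Mir27b over Mir23a). Adding 5 to each count or using the unstranded column changed no direction or call of these ratios. Dividing by hairpin length, chosen after seeing the data, turned only Mir24-1 over Mir24-2, to 0.23, through the lengths themselves. The count of detected genes differing between libraries was 204, against 202 with DESeq2 size factors, 205 with raw totals, 210 without a filter and 184 without strand. No test remains when 1 library is left out. The median log2 difference of neighbours was 2.67, against 2.93 within 50 kb, and 2.65 to 2.81 over single replicates. All 6 members shared 20 nt, hence also 18 nt, with another hairpin. Of 133 recomputed values 111 stayed within the limits set. With 2 libraries, a single-replicate level or ratio always lies within 1 SD of the mean, so that outcome was fixed in advance. The unstranded ratios of the miR-23 and miR-27 genes were fixed too, since their counts were identical without strand. This tally is therefore no measure of robustness. No paired analysis was possible because there is only 1 group. The miR-24 genes had the fewest reads of the members, at 53 to 169, and reads of miR-24-3p fit both hairpins at any depth.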
